A study of Mus musculus with 6 samples.

Results

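The genes described here encode the subunits of respiratory complex I that are made from nuclear DNA. They were taken as every protein-coding gene of GENCODE M21 whose symbol begins with Nduf, followed by a, b, c, s or v and a digit, with Ndufa4l2 left out. This gave 36 of the 31053 genes in the deposited counts. Complex I takes electrons from NADH, passes them along a chain of iron-sulfur clusters to coenzyme Q and pumps protons across the inner mitochondrial membrane. Its matrix arm holds the NADH site and the iron-sulfur chain, and its membrane arm holds the proton pumps. A core conserved from bacteria is split between nuclear and mitochondrial genes, and the many accessory subunits, all nuclear, are needed for assembly and stability. Quiescent muscle stem cells have few mitochondria and a low respiration, and thyroid hormone is known to raise respiratory genes in muscle.

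The study asked what the loss of type 2 deiodinase (D2, encoded by Dio2), the enzyme that makes active thyroid hormone inside the cell, does to quiescent muscle stem cells (qMuSCs). The cells came from resting muscle of tamoxifen-treated mice of 3 to 4 months, sorted by FACS for nuclear GFP driven by Pax7 (Pax7nGFP/+), and every mouse carried floxed Dio2 alleles (Dio2Fl/Fl). The 3 cD2KO mice (fl125, fl126 and fl128) also carried Pax7-CreERT2/+, which limits recombination to cells that express Pax7, while the 3 WT mice (c124, c129 and c130) were Pax7+/+ and had no Cre. Each mouse gave a library of its own. Since only the cD2KO mice carried Cre, effects of Cre and of Dio2 loss cannot be told apart, and the control mice are floxed animals rather than mice without engineered alleles.

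Total counts lay between 2184073 (fl125) and 3897787 (c124) per mouse, where 3 counts stand for 0.773 to 1.37 CPM (counts scaled to a common library size with edgeR's TMM factors), counting error alone being considered. The 36 genes had between 19 and 4299 counts in a mouse, and 34 of them had at least 100 counts in every mouse. Pax7, the transcription factor that defines muscle stem cells, was at 213 to 691 CPM in all 6 mice. Markers of other cells were present too and are given with the last comparison, and in bulk libraries fewer cells of a type and less RNA per cell cannot be told apart. Dio2 itself had 21 counts in c124, 5 in c129 and 10 in c130, and 15 in the library labelled fl125 (fl125 here), 5 in fl126 and 1 in fl128. So fl125 had a Dio2 level of 6.83 CPM, the highest of the 6 mice, which goes against its label. These counts are few and take in the whole gene rather than the floxed exon. Since fl125 also stood apart in immune markers, each main result is given with and without it.

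All 36 genes passed the minimum set for the test, a mean of more than 10 normalized counts over the 6 mice, and none was lost to it. By edgeR's quasi-likelihood test 4 of them were higher in cD2KO than in WT qMuSCs, with an unadjusted p under 0.05, and 0 were lower. These were Ndufb7, Ndufv1, Ndufa11 and Ndufa5, an 11.1% share of the 36, against 5.34% of the 11633 genes tested that were higher and 6.62% that were lower. With p-values adjusted over the 11633 genes (Benjamini-Hochberg) none of the 36 passed 0.05, and the lowest adjusted p was 0.270. Of all genes 1 passed, or 0.00860%.

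Small positive differences ran through nearly the whole group. The log2 fold change (cD2KO minus WT) was above 0 in 33 of the 36 genes, against 48.1% of all genes tested. Its median was 0.21, against -0.02 over all genes tested. The exceptions were Ndufa4, Ndufc2 and Ndufs5, at -0.28, -0.10 and -0.17. For 28 of the 36 genes the value was under 0.3 in size, and for 32 of them the 95% interval included 0. Only the intervals of Ndufb7, Ndufa11 and Ndufc1 reached above a log2 fold change of 1, and only that of Ndufs5 reached below -1. All cD2KO mice lay above all WT mice in 3 of the 36 genes (Ndufv1, Ndufa5 and Ndufb10), or 8.33%, against 8.05% of all genes tested.

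**Figure D1:**
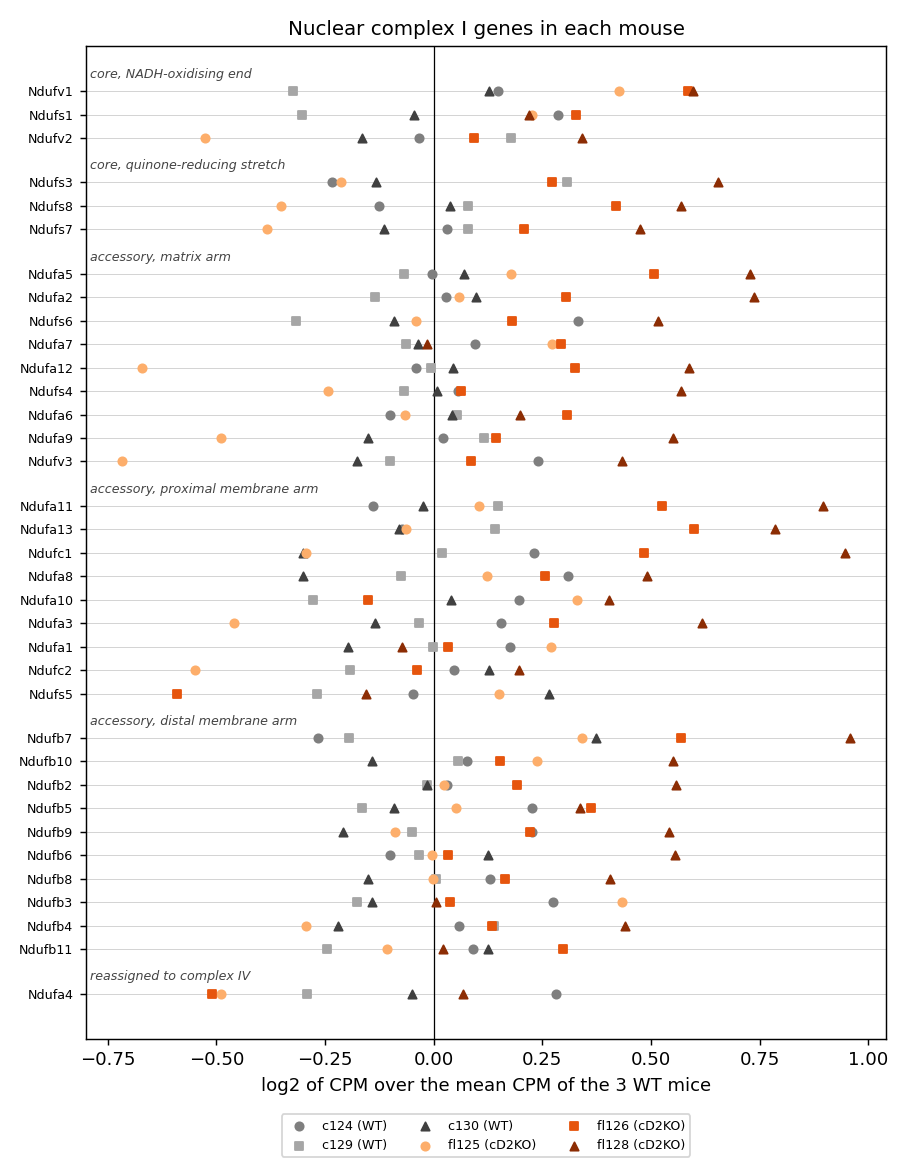
Level of 35 of the 36 nuclear complex I genes in each of the 6 mice, as the log2 of its CPM over the mean CPM of the 3 WT mice, grouped by place in the complex. Grey symbols are WT mice and orange to brown symbols cD2KO mice; the brown triangles of fl128 stand farthest to the right in 26 of the genes drawn.

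The 3 cD2KO mice were not alike. Mouse fl128 had the highest level of all 6 mice in 27 of the 36 genes, a 75.0% share against 18.7% of all genes tested. It lay above every WT mouse in 29 of them, while fl126 did so in 21 and fl125 in 7. Mouse fl125 lay below every WT mouse in 11 of the 36 genes. It was the lowest of the 6 mice in 10, or 27.8%, against 23.2% of all genes tested. The WT mouse c129 was the lowest in 12, or 33.3%, against 20% of all genes tested. In 25 genes the level went from fl125 over fl126 to fl128. The share over all genes was not taken for this order or for the counts above or below every WT mouse. The standard deviation of log2 CPM between mice had a median of 0.18 in WT and 0.31 in cD2KO over the 36 genes, and it was larger in cD2KO for 28 of them, or 77.8%, against 56.2% of all genes tested.

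Summed over the 36 genes, the level was 7639 CPM in c124, 7144 CPM in c129 and 7115 CPM in c130, the WT mice. It was 7112 CPM in fl125, 9101 CPM in fl126 and 10882 CPM in fl128, the cD2KO mice. Mouse fl125 thus lay just below the lowest WT mouse, and the other cD2KO mice lay above all WT mice. The WT mean was 7299 ± 295 CPM and the cD2KO mean 9031 ± 1886 CPM (SD, n = 3 each), a ratio of 1.24 that became 1.37 without fl125 and 1.11 without fl128. As a share of all counts of a library the 36 genes took 0.761%, 0.740% and 0.724% in WT and 0.715%, 0.889% and 1.02% in cD2KO. The groups overlapped on both scales.

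The NADH-oxidising tip of the matrix arm is built from Ndufv1, which holds the flavin that takes the electrons of NADH, together with Ndufv2 and Ndufs1, which carry iron-sulfur clusters. Ndufv1 (ENSMUSG00000037916, minus strand of chromosome 19 from 4007384 to 4012806, mm10) was at 160.2, 115 and 158 CPM in the WT mice and 194, 217 and 219 CPM in the cD2KO mice, always in the order c124, c129, c130 and fl125, fl126, fl128. The lowest cD2KO mouse stood above the highest WT mouse. The WT mean was 144 ± 25.1 CPM and the cD2KO mean 209.7 ± 13.7 CPM (SD, n = 3 each), which gave a log2 fold change of 0.54 with a standard error of 0.20 (adjusted p = 0.293, edgeR). Ndufv1 and Ndufa5 were the called genes in which fl125 too stood above all WT mice. The unadjusted p of Ndufv1 stayed under 0.05 in 4 of the 6 fits with a mouse left out.

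Its neighbours did not pass the test. Ndufs1, the large subunit of the chain, was at 95.02, 63.1 and 75.5 CPM in WT and 91.1, 97.7 and 90.6 CPM in cD2KO, a log2 fold change of 0.25 (SE 0.21). Ndufv2 was at 149, 172 and 136 CPM in WT and 106, 162 and 193 CPM in cD2KO, a log2 fold change of 0.02. For Ndufv2 the cD2KO mice reached both below and above all WT mice, and the sign of the difference changed when total counts were used as library size.

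Further core subunits, among them Ndufs3, Ndufs7 and Ndufs8, carry electrons on to coenzyme Q, and 0 of these 3 genes passed the test. Ndufs7, which holds the last iron-sulfur cluster before the quinone, was at 294, 304 and 266 CPM in WT and 220.4, 332 and 399.5 CPM in cD2KO, with a log2 fold change of 0.14. The WT mice lay inside the range of the cD2KO mice.

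Ndufs8, another carrier of iron-sulfur clusters, was at 78.3, 90.2 and 87.7 CPM in WT and 66.9, 114 and 127 CPM in cD2KO, a log2 fold change of 0.27. Ndufs3, a core subunit without a cofactor, was at 85.7, 125 and 91.9 CPM in WT and 87.0, 122 and 159 CPM in cD2KO, a log2 fold change of 0.29. All 3 genes had their highest level in fl128. In Ndufs7 and Ndufs8 fl125 was the lowest of the 6 mice.

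Among the 9 accessory genes of the matrix arm, all had a log2 fold change above 0 (0.01 to 0.49, median 0.18) and 1 passed the test. This was Ndufa5 (ENSMUSG00000023089, minus strand of chromosome 6 from 24518666 to 24528013), which encodes a small subunit packed against the core of the arm. Ndufa5 was at 633, 605 and 666 CPM in WT and 718, 901 and 1051 CPM in cD2KO. The groups did not overlap, and fl125 stood closest to WT. The WT mean was 634 ± 30.4 CPM and the cD2KO mean 890.0 ± 167 CPM (SD, n = 3 each), which gave a log2 fold change of 0.49 with a standard error of 0.20 (adjusted p = 0.369, edgeR), and its unadjusted p stayed under 0.05 in 1 of the 6 fits with a mouse left out.

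Ndufa2, a subunit with a thioredoxin fold, was at 617, 551 and 648 CPM in WT and 629.8, 747 and 1009 CPM in cD2KO, a log2 fold change of 0.39 (adjusted p = 0.507 by edgeR). Here fl125 lay between the WT mice. The other accessory genes of this arm, Ndufs6, Ndufa7, Ndufa12, Ndufs4, Ndufa6, Ndufa9 and Ndufv3, had log2 fold changes from 0.24 down to 0.01, each with a 95% interval that included 0. Ndufs4, whose loss causes a fatal mitochondrial encephalopathy in mice and humans, was among them at 0.17. Ndufa12 and Ndufv3 had the widest scatter of this arm in cD2KO relative to their means, from 122 CPM in fl125 to 292 CPM in fl128 for Ndufa12 and from 103 to 229 CPM for Ndufv3.

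The proximal part of the membrane arm, next to the joint with the matrix arm, held the widest range. Of its 9 accessory genes 7 had a log2 fold change above 0 and 1 passed the test. Ndufa11 (ENSMUSG00000002379, plus strand of chromosome 17 from 56717767 to 56722141), a membrane subunit at the contact with complex III in respiratory supercomplexes, was at 216, 264 and 234 CPM in WT and 255, 343 and 443 CPM in cD2KO. Mouse fl125 lay below the WT mouse c129, so the groups overlapped. The WT mean was 238 ± 24.0 CPM and the cD2KO mean 347 ± 93.7 CPM (SD, n = 3 each), which gave a log2 fold change of 0.55 with a standard error of 0.22 (adjusted p = 0.359, edgeR), with an unadjusted p under 0.05 in 2 of the 6 fits with a mouse left out. Exons of Ndufa11 overlap Vmac on the opposite strand, and the use of strand in counting is not given in the sources used here.

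Ndufa13, also known as GRIM-19 for a part in cell death, had the highest CPM of the 36 genes. It was at 749.6, 868 and 746 CPM in WT and 754, 1194 and 1358 CPM in cD2KO, a log2 fold change of 0.48 (SE 0.23, adjusted p = 0.435 by edgeR). Mice fl126 and fl128 stood above all WT mice and fl125 among them. Ndufc1, a small membrane subunit, had the same pattern with 402, 347 and 278 CPM in WT and 279.6, 479 and 661 CPM in cD2KO, a log2 fold change of 0.47 (adjusted p = 0.548 by edgeR).

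At the other end of this group were Ndufc2 and Ndufs5. Ndufc2 was at 152, 128.8 and 161 CPM in WT and 101, 143 and 169 CPM in cD2KO, and its log2 fold change of -0.10 rested on fl125: without that mouse it was 0.12. Ndufs5, a subunit on the outer face of the inner membrane, was the lowest of the 36 genes, at 9.53, 8.17 and 11.8 CPM in WT and 10.9, 6.53 and 8.84 CPM in cD2KO. The interval of its log2 fold change of -0.17 ran from -1.10 to 0.75, so that no difference was detectable at this depth. Ndufa8, a neighbour of Ndufs5 on the same face, was at 82.4, 63.1 and 54.0 CPM in WT and 72.4, 79.4 and 93.5 CPM in cD2KO, a log2 fold change of 0.30. Ndufa3, Ndufa10 and the X-linked Ndufa1 lay between 0.08 and 0.21.

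In the distal part of the membrane arm, where the Ndufb subunits sit, all 10 genes had a log2 fold change above 0 (0.08 to 0.65, median 0.23) and 1 passed the test. Ndufb7 (ENSMUSG00000033938, plus strand of chromosome 8 from 83566671 to 83571626), a disulfide-bonded subunit on the outer face of the membrane, had the largest log2 fold change of the 36 genes. It was at 136, 143 and 213 CPM in WT and 208, 244 and 319 CPM in cD2KO, so that fl125 lay just below the WT mouse c130. The WT mean was 164 ± 42.2 CPM and the cD2KO mean 257 ± 56.4 CPM (SD, n = 3 each), which gave a log2 fold change of 0.65 with a standard error of 0.23 (adjusted p = 0.270, edgeR). Its unadjusted p stayed under 0.05 in 4 of the 6 fits with a mouse left out.

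Ndufb10, of the same fold as Ndufb7, was at 191, 188 and 164 CPM in WT and 214, 202 and 266 CPM in cD2KO. Its groups did not overlap, and its log2 fold change of 0.32 did not pass the test (SE 0.19, adjusted p = 0.545 by edgeR). The other distal genes, Ndufb2, Ndufb3, Ndufb4, Ndufb5, Ndufb6, Ndufb8, Ndufb9 and the X-linked Ndufb11, lay between 0.08 and 0.28 on the log2 scale with intervals that included 0.

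Ndufa4, long counted with complex I and later found in complex IV, went the other way. It was at 38.1, 25.6 and 30.3 CPM in WT and 22.3, 22.01 and 32.8 CPM in cD2KO, a log2 fold change of -0.28 (SE 0.29, adjusted p = 0.760 by edgeR). Mice fl125 and fl126 stood below all WT mice and fl128 among them. Ndufab1, the acyl carrier protein that serves complex I and mitochondrial fatty acid synthesis, does not match the naming rule. It was at 49.96, 57.9 and 52.6 CPM in WT and 75.6, 69.5 and 60.0 CPM in cD2KO, without overlap, with a log2 fold change of 0.35 that did not pass the test (adjusted p = 0.535 by edgeR).

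**Figure D2:**
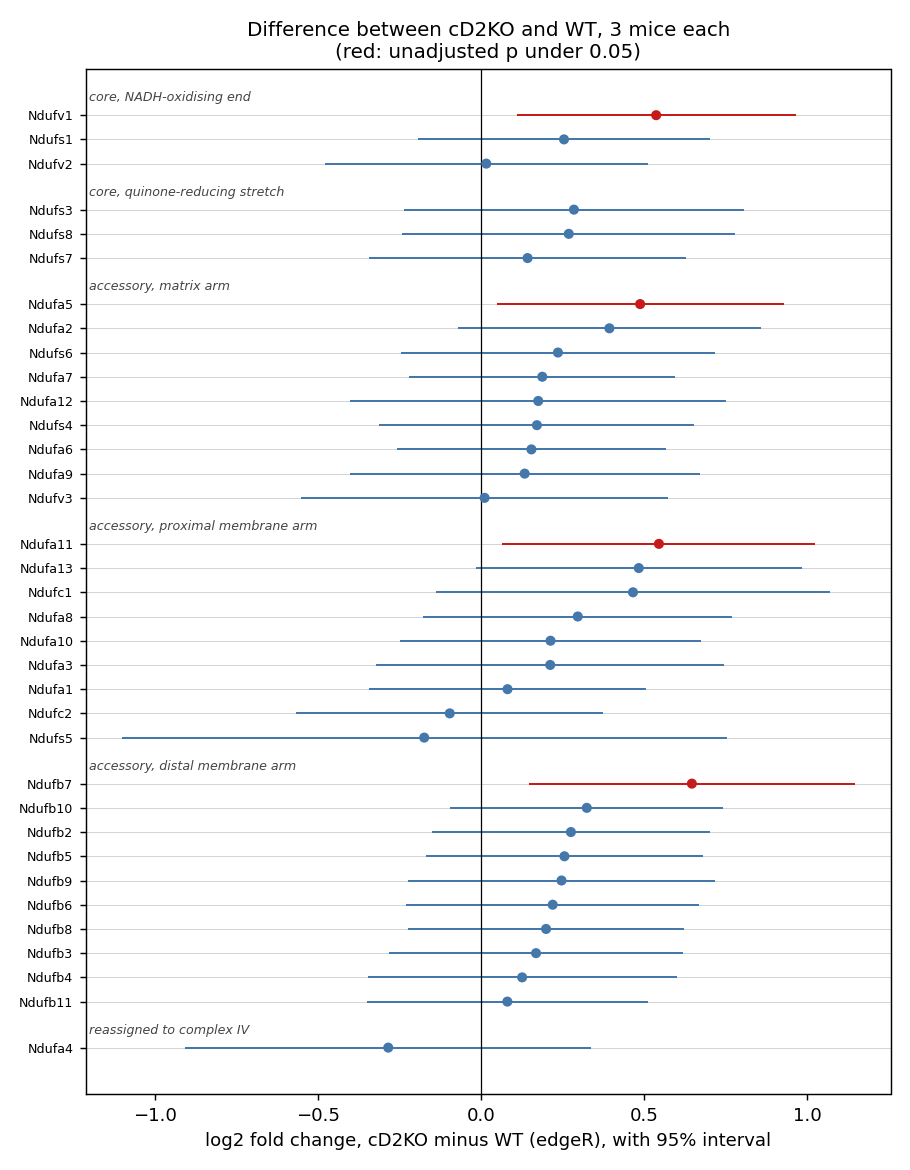
Log2 fold change (cD2KO minus WT, edgeR, 3 mice each) of 35 of the 36 genes with its 95% interval, in the same grouping; red marks an unadjusted p under 0.05. The red genes Ndufv1, Ndufa5, Ndufa11 and Ndufb7 fall in 4 different places of the complex, and 32 of the 35 points lie right of 0.

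The levels of the 36 genes spread over a 101.6-fold range in CPM, from Ndufs5 to Ndufa13, around a median of 162 CPM, and 29 genes lay between 50 and 320 CPM. Divided by the length of the principal transcript in M21, the range was 89.5-fold, and the highest levels were those of Ndufa2 (1224 CPM per kb), Ndufa5 (871 CPM per kb) and Ndufa13 (755 CPM per kb). The lowest were Ndufs5 (13.7 CPM per kb), Ndufs1 (32.1 CPM per kb) and Ndufa4 (46.8 CPM per kb). RNA levels of subunits of the same complex thus differed widely on both scales. The labels name a digital RNA-seq service. Whether reads came from the whole transcript or from its end is not given in the sources used here, and in the latter case scaling by length would lower the values of long transcripts.

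The larger differences were found in the more abundant genes. Of the 18 genes with the higher mean CPM 4 passed the test and the median log2 fold change was 0.26. Of the 18 with the lower mean CPM 0 passed and the median was 0.16. Over all genes tested, at any level, 5.34% were higher. The share among all genes of like level was not taken, so these counts cannot be set apart from an effect of level on the test. Across the 36 genes the Spearman correlation of mean CPM with log2 fold change was 0.46, against 0.17 across all genes tested. These are descriptions across genes measured in the same 6 libraries, and genes are not independent replicates.

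Some of these counts are uncertain by sequence. Exons of 13 of the 36 genes overlap a gene on the opposite strand in M21, and for 8 genes at least 5% of their 50-base windows occur in another annotated gene. The share was 37.0% for Ndufb4, 35.8% for Ndufs3, 31.1% for Ndufs5 and 26.2% for Ndufa12. Exons of Ndufb2, Ndufb8 and Ndufb9 also overlap Gm42420, Gm20538 and Gm49356 on their own strand. Of the called genes, Ndufv1, Ndufa5 and Ndufb7 had neither an overlapping exon nor a shared window. Ndufa11 had a share of 3.45% beside its overlap with Vmac.

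With fl125 left out, 12 of the 36 genes (33.3%) were higher at an unadjusted p under 0.05, against 7.93% of all genes tested in that fit, 34 had a log2 fold change above 0, against 48.9%, and the median was 0.39. Ndufa13, Ndufc1, Ndufa2, Ndufs8, Ndufa12, Ndufa3, Ndufs3 and Ndufb2 then joined the 4 genes, at log2 fold changes of 0.74, 0.77, 0.58, 0.54, 0.50, 0.50, 0.52 and 0.43. The lowest adjusted p was that of Ndufa11, 0.0507 in edgeR's test. With fl128 left out, 1 gene was higher (Ndufv1), against 3.46% of all genes tested, 25 were above 0, against 48.4%, and the median was 0.10. Without c124, c129, c130 or fl126 the count of higher genes was 1, 3, 2 or 1 of the 36, against 5.18%, 4.33%, 3.92% or 4.09% of all genes tested in the same fit, and the median lay between 0.18 and 0.27. The count of lower genes was 0 in each of these fits.

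**Figure D3:**
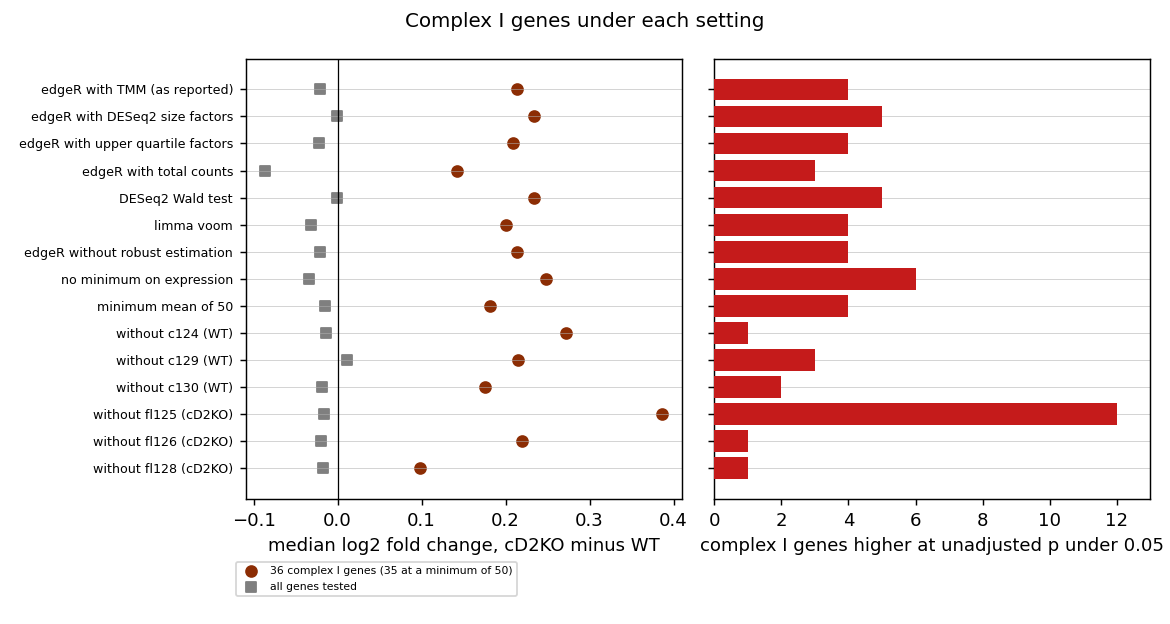
Median log2 fold change of the 36 complex I genes and of all genes tested (left) and number of complex I genes higher at an unadjusted p under 0.05 (right) for each test, scaling, minimum and left-out mouse. The median ran from 0.10 without fl128 to 0.39 without fl125, and the count from 1 to 12.

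The rest of complex I was read from the same libraries. Of the 7 mitochondrial genes that encode its proton-pumping core, 6 passed the minimum. Of these 1, mt-Nd6, was higher in cD2KO (16.7%), against 5.34% of all genes tested. The median log2 fold change of the 6 was 0.20, and 5 were above 0, the exception being mt-Nd3 at -0.42. Mt-Nd6 lies on the opposite strand of the mitochondrial genome from the others, so that without strand its reads cannot be told apart from antisense RNA. It was at 113, 52.0 and 88.1 CPM in WT and 166, 116 and 140 CPM in cD2KO, without overlap (log2 fold change 0.73, adjusted p = 0.273 by edgeR). Together the mitochondrial genes took 7.02% to 12.6% of the counts in WT and 10.02% to 10.8% in cD2KO. Their counts were 16.5, 9.49 and 12.5 times those of the 36 nuclear genes in WT and 14.01, 12.1 and 10.3 times in cD2KO, so the groups overlapped in the balance between the genomes.

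Of the complex I assembly factors, proteins that build the complex and then leave it, 18 were tested, with a median log2 fold change of 0.11. Of these 12 were above 0 (66.7%), against 48.1% of all genes tested, and 1 was higher (5.56%), close to the 5.34% of all genes tested. Dmac2 was higher, at 23.4, 20.0 and 30.6 CPM in WT and 54.7, 48.5 and 29.4 CPM in cD2KO (log2 fold change 0.83, adjusted p = 0.265 by edgeR), and here fl128 was the lowest cD2KO mouse. Among transcription factors and coactivators of respiratory genes, 11 were tested, their median log2 fold change was -0.11 and 0 passed the test in either direction. Ppargc1a, the best known coactivator of mitochondrial genes, was at -0.13, Nrf1 at 0.08, Gabpa at -0.44, Yy1 at -0.27 and Esrra at 0.15.

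The other respiratory complexes had values of a like size. The median log2 fold change was 0.30 in complex II (3 genes tested, Sdhc higher), 0.35 in complex III (9 genes, Cyc1 and Uqcrc1 higher), 0.27 in complex IV (10 genes, Cox6c higher) and 0.13 in the ATP synthase, complex V (17 genes, 0 passed). Cyc1, which encodes cytochrome c1, had the largest of these differences at 0.73 (adjusted p = 0.191 by edgeR). Of the 39 tested genes of complexes II to V, 38 had a log2 fold change above 0, against 48.1% of all genes tested. The genes of these complexes that were higher made up 10.3%, against 5.34% of all genes tested. The summed CPM of the 36 complex I genes over that of complexes II to V was 0.541, 0.613 and 0.543 in WT and 0.540, 0.574 and 0.585 in cD2KO, so the groups overlapped in the share that complex I had among the complexes. Of 7 tested genes for other ways into the quinone pool, such as electron transfer from fatty acids, 0 passed the test. Their log2 fold changes ran from -0.52 (Etfdh) to 0.17 (Prodh) with a median of -0.21, and they summed to a mean of 296 ± 28.7 CPM over the WT and 297 ± 9.22 CPM over the cD2KO mice (SD, n = 3 each).

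**Figure D4:**
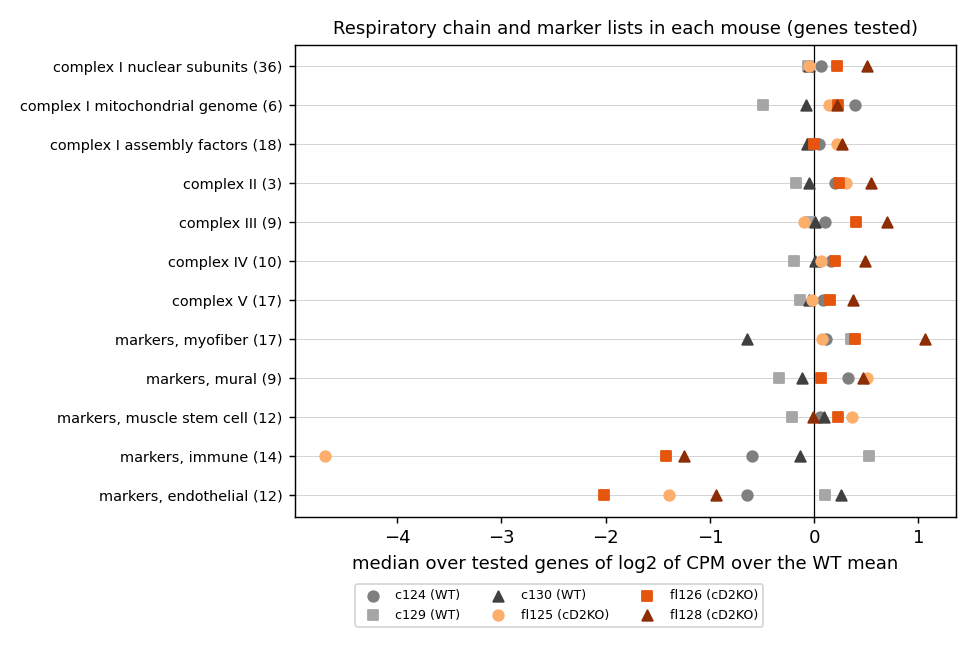
Median over the tested genes of a list (number in brackets) of the log2 of CPM over the mean CPM of the WT mice, in each of the 6 mice, a gene at 0 in a mouse being left out there. In complexes I, III, IV and V fl128 stands farthest right and fl125 near the WT mice; in the immune marker list fl125 stands far to the left.

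Several marker lists moved with the mice or the groups. Contractile and metabolic genes of the muscle fiber summed to 4398, 5626 and 2663 CPM in WT and 4761, 5429 and 8776 CPM in cD2KO. All 17 had a log2 fold change above 0, against 48.1% of all genes tested. Cox6a2 and Myh2 were higher (11.8%), against 5.34% of all genes tested. Markers of mural cells of blood vessels summed to 9320, 5449 and 6848 CPM in WT and 11117, 11923 and 16338 CPM in cD2KO, and 4 of 9 were higher (Acta2, Myh11, Tagln and Cnn1, genes of the contractile apparatus). Acta2 and Myh11 made up most of that sum, and the log2 fold changes of Rgs5, Cspg4, Pdgfrb, Kcnj8 and Abcc9 were 0.0025, 0.25, -0.06, -0.36 and -0.23.

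Immune markers summed to 4228, 8004 and 5249 CPM in WT and 222, 2405 and 2845 CPM in cD2KO, with 3 of 14 lower (Ptprc, Cd68 and Adgre1) and 0 of 14 above 0. Over all genes tested 6.62% were lower, 5.34% were higher and 48.1% were above 0. Endothelial markers summed to 509 to 687 CPM in WT and 322 to 404 CPM in cD2KO, with 8 of 12 lower. The endothelial markers Esam and Tek were above 0, at 0.32 and 0.04, and all cD2KO mice lay above all WT mice in Esam. Fibroadipogenic markers summed to 3773 to 6242 CPM in WT and 2287 to 5036 CPM in cD2KO, with 2 of 7 lower. Schwann cell markers summed to 4115 to 6396 CPM in WT and 5682 to 6539 CPM in cD2KO, with 1 of 4 lower. Muscle stem cell markers summed to 2321, 1821 and 2330 CPM in WT and 3251, 2472 and 2086 CPM in cD2KO, with 3 of 12 higher (Myf5, Cdh15 and Itga7). Of the 12, 8 had a log2 fold change above 0. Sdc4, Spry1, Cd34 and Vcam1 were below 0, at -0.46, -0.45, -0.13 and -0.09. The part of any of these cells in the complex I values was not tested.

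Promoters were read from RefSeq (GRCm38.p6), as 250 bases before to 50 bases after the transcription start, and 32 of the 36 genes had an entry. Motifs of factors known for respiratory genes were searched as exact letters on both strands. The letters AAGATGGC, a motif of YY1, were in the promoters of 7 of the 32 genes (21.9%), against 3.19% of all 27025 genes with an entry. They are shown because all 7 copies lay in a like place. Each copy was on the strand of the gene, 22 to 38 bases after the start, and the ATG inside it was the annotated start codon in M21. Over all genes 862 had the motif, 280 of them on the gene's strand after the start (32.5%), and in 174 the ATG was an annotated start codon. For this and the other motifs, the 27025 genes go beyond the 11633 tested. They were not matched to the complex I genes in level, coding type or GC content, so the shares compare unlike sets. The 28 bases around each copy follow, 5′ to 3′ on the strand of the gene, with the motif in capitals.
Ndufc1, chr3:51408922-51408949, minus strand: gcggagcctgcggaacAAGATGGCgccg
Ndufs7, chr10:80249457-80249484, plus strand: tctgaaggccgaggccAAGATGGCggcg
Ndufb8, chr19:44555393-44555420, minus strand: aaccgcggagaaggtgAAGATGGCtgcc
Ndufs6, chr13:73328438-73328465, minus strand: gtcaagggtcaccggcAAGATGGCggcg
Ndufa3, chr7:3617379-3617406, plus strand: tgtcgccgccaagaacAAGATGGCcggg
Ndufs4, chr13:114388048-114388075, minus strand: ggcgtttgcctacaggAAGATGGCggcg
Ndufa9, chr6:126849104-126849131, minus strand: tgaggcattgtgggagAAGATGGCggcc

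These 7 genes had log2 fold changes from 0.13 (Ndufa9) to 0.47 (Ndufc1), and none of them passed the test. A match is a run of letters and not a shown binding site. The letters GCGCATGC, part of the site of NRF1, a factor named for respiratory genes, were in 3 of the 32 promoters (9.38%), against 3.05% of all genes. In Ndufa11 they formed a run that reads the same on both strands. The letters CCGGAAG, bound by ETS factors such as GABPA, were in 4 of the 32 promoters (12.5%), against 9.93% of all. The runs nearest to the starts of the called genes Ndufa11 and Ndufb7 follow, beside the other 2 of NRF1, for comparison.
Ndufa11, NRF1, chr17:56717692-56717721, plus strand: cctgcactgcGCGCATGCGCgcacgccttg
Ndufa6, NRF1, chr15:82354357-82354384, minus strand: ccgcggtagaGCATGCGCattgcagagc
Ndufa8, NRF1, chr2:36049329-36049356, minus strand: cgctggagacGCATGCGCagatggtacc
Ndufb7, ETS, chr8:83566728-83566754, plus strand: cctagatgacCCGGAAGacactgaagg

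Ndufa11 is the gene whose promoter held the longest of these runs, and the 250 bases before its start are given whole, with the NRF1 letters in capitals.
Ndufa11, chr17:56717512-56717761, plus strand: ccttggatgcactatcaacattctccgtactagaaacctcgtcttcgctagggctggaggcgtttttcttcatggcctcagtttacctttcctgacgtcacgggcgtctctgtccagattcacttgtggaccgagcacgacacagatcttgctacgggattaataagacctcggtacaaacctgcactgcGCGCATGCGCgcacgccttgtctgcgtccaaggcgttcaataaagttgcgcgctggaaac

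The core hexamer of nuclear receptor sites, AGGTCA, which thyroid hormone receptors bind in pairs, was in 7 of the 32 promoters (21.9%), against 18.1% of all genes, and TCAAGGTCA, the longer site of estrogen-related receptors that contains it, was in 0, against 0.466%. The letters CCAAT were in 10 promoters (31.2%), against 41.1%, and TATAAA in 4 (12.5%), against 15.7%. The promoters of the complex I genes had a median GC content of 58.8%, against 52.8% over all genes. Of the called genes, Ndufa5 and Ndufa11 had AGGTCA in an entry, Ndufb7 and Ndufv1 did not, and Ndufv1 had none of the letters of NRF1, ETS or YY1 either. A motif absent from this window may lie elsewhere, and no match here says anything about the factor itself.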

How the data were processed

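Sorted qMuSCs of 3 WT and 3 cD2KO mice were sequenced separately for each mouse. The authors deposited unnormalized whole-number read counts for 31053 Ensembl gene identifiers. The submitters' processing notes name bcl2fastq, STAR 2.6.0a, HTSeq 0.9.1 and mm10; the annotation, strand setting and treatment of duplicates are not given in the sources used here. Symbols and coordinates came from GENCODE M21, which held 30934 of the identifiers. All columns belonged to a labelled mouse, groups came from the genotype labels, and no batch is given.

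The 11633 genes whose DESeq2-normalized counts averaged over 10 were compared in R 4.3.3 by edgeR 4.0.16 (quasi-likelihood test, TMM scaling, robust estimation, all 6 mice, no covariate). An unadjusted p under 0.05 was the threshold, after the line the study drew, and Benjamini-Hochberg adjustment covered the 11633 genes. The p-values set the difference between the groups against the spread between mice, which edgeR moderates with information from all genes. CPM used the TMM-scaled library sizes, and SDs are between mice. Alternatives were DESeq2 1.42.0, limma voom (limma 3.58.1), other scalings and minimums, non-robust estimation and leaving out each mouse; those for the summed level were added after seeing the data. The tests were tested on simulated data.

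The genes, lists and tests were chosen with earlier results of these data known. Genes named with values in every mouse were the core subunits, those with an unadjusted p under 0.05, up to 5 with the smallest p in each direction (3 were below 0), those with the 3 highest and 3 lowest CPM and Ndufa4; Ndufb10, Ndufc1 and the other members given by value were named after their values were seen. The values of 1 gene are not reported here. Depth limits statements on genes near 1 CPM. Arrays and other assays of the study were not analysed here.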

Additional observations from a re-analysis of the deposited data

How the results depend on the processing

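Of the 36 genes, 5 were higher at an unadjusted p under 0.05 with the DESeq2 Wald test and with DESeq2 size factors in edgeR. Over all 11633 genes tested 611 and 674 were higher in these fits. With upper quartile factors, limma voom and non-robust estimation 4 of the 36 were higher, against 606, 621 and 605 of the 11633. A minimum mean of 50 (35 genes tested) gave 4, against 431 of 7353. Total counts gave 3, against 439 of 11633, and no minimum on expression gave 6, against 939 of 18040. With each mouse left out the count ran from 1 to 12, the median log2 fold change from 0.10 to 0.39, the number above 0 from 25 to 34 and the ratio of the summed levels from 1.11 to 1.37. The count of lower genes was 0 in all 15 fits. Under total counts the median of all genes was -0.09 and that of the complex I genes 0.14, a difference of 0.23, as with TMM factors. Ndufv2 changed sign with total counts (-0.059), limma voom (-0.014) and a minimum mean of 50 (-0.021), and ran from -0.18 to 0.26 with mice left out. Among the genes named with values in every mouse, leaving out a mouse also turned the sign of Ndufc2 (-0.27 to 0.12), Ndufs5 (-0.31 to 0.0019) and Ndufs7 (-0.057 to 0.39). Signs of the other members were not followed one by one. With fl128 left out 25 of the 36 genes were above 0, against 33 with all mice, so further members changed sign there. With total counts and with limma voom 31 were above 0. The cause was not tested. No paired analysis was possible because the labels carry no replicate numbers. At 3 mice a group the median standard error was 0.22 on the log2 scale.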

Other observations

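Ndufa4l2, which the naming rule leaves out, encodes a relative of Ndufa4 that is known to be induced by hypoxia and to be high in mural cells. It was at 146, 127 and 99.5 CPM in the WT mice and 118, 168 and 215 CPM in the cD2KO mice, a log2 fold change of 0.43 that did not pass edgeR's test (adjusted p = 0.511). Its level was above that of Ndufa4 in every mouse, and its order among the cD2KO mice was that of most complex I genes, with fl125 lowest and fl128 highest.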
